A study of Mus musculus with 4 samples.

Results

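The genes described here are the receptors MET and EGFR with their closest partners: Met, Egfr, Erbb2 and Erbb3 (receptors), Hgf, Hgfac, Tgfa and Btc (ligands and a ligand activator), and Lrig1 and Errfi1 (feedback inhibitors). They were chosen by gene symbol from the platform annotation, and these 10 genes, of 18193 with a single symbol, are represented by 26 of 34945 probe sets. Their messenger RNA was measured in mouse liver on 4 single-colour Affymetrix expression arrays, 1 per group and day. All mice had the genotype given as Metff/ff:ERCre+/+, that is, a Met gene that can be cut by a Cre recombinase under tamoxifen control. The treated group, called delta MET + EGFRi in the labels, had 5 daily tamoxifen injections, which delete exon 16 of Met. After 4 days of rest canertinib, an inhibitor of the EGFR kinase, was mixed into the diet with an aim of 80 mg/kg/day. Control littermates of the same genotype received corn oil alone, and the labels name no canertinib for them, so that the loss of Met, the tamoxifen itself, the drug and altered food intake cannot be told apart. Livers were taken at day 7 and day 10, counted in treated mice from the first canertinib diet and in controls from the end of the rest. Each array carried pooled RNA. How many animals entered a pool, their sex and age, and the promoter that drives Cre are not given in the sources used here.

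MET is the cell surface receptor of hepatocyte growth factor. The factor is secreted as an inactive chain, which the serine protease encoded by Hgfac cleaves. EGFR belongs to the ERBB family of receptor tyrosine kinases, which signal in pairs: ERBB2 has no known ligand of its own, and ERBB3 has a weak kinase and signals through its partners. Transforming growth factor alpha (Tgfa) and betacellulin (Btc) bind EGFR. LRIG1 is a membrane protein that promotes removal of ERBB receptors and MET from the cell, and ERRFI1 binds the EGFR kinase and blocks it. In hepatocytes both receptor systems drive growth and survival through the same RAS, ERK and PI3K routes. Canertinib acts on the kinase protein, so the Egfr messenger RNA does not measure the inhibition.

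Signals are the deposited array values on a linear scale, and the array medians ranged from 210.5 to 223.9. Albumin (Alb), the defining product of hepatocytes, gave 71295 to 78532 units on the 4 arrays. Across groups, log2 values were compared with limma over 11993 genes bright enough to test, each represented by its brightest probe set. Differences are treated minus control with the standard error (SE), and p-values were adjusted by the Benjamini-Hochberg method. Each group has 1 array of each day, so the spread behind each test includes any change from day 7 to day 10. Within a day each group has 1 array, and such differences have no replicate check. In whole liver, fewer cells of a type and less RNA per cell cannot be told apart.

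Among the 10 genes Met had the largest difference, higher in treated liver, while Hgfac and Lrig1 were lower on both treated arrays, and Egfr, Tgfa, Btc and Errfi1 gave overlapping groups on their brightest probe sets. Of the 9 genes that could be tested 0 passed an adjusted p under 0.05 in limma, against 0.659% of all 11993 genes. At an unadjusted p under 0.05 there were 2, Met and Hgfac. Both treated arrays lay above both control arrays for 3 of the 9 (Met, Erbb3 and Hgf), against 20.3% of all tested genes, and below them for 2 of the 9 (Hgfac and Lrig1), against 24.1%. The median log2 difference of the 9 was -0.05, and that of all tested genes -0.02. The tenth gene, Erbb2, was too dim to test. Only Met was at least 2-fold apart at both days, a size that 1.54% of tested genes reached in the higher direction.

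**Figure D1:**
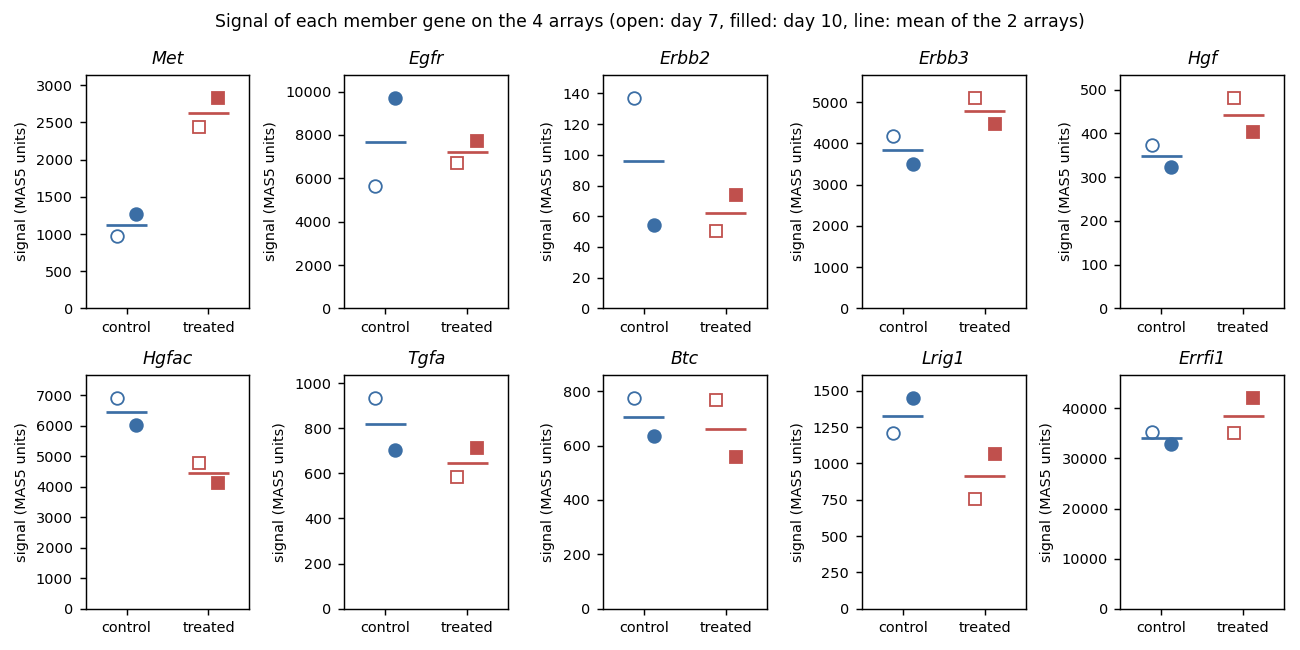
Signal in MAS5 units (linear axis from 0) of the brightest probe set of each of the 10 genes on the 4 arrays. Open symbols are day 7, filled symbols day 10, blue circles control, red squares treated, and the line is the mean of the 2 arrays. Both treated Met values (2432 and 2829) lie above both control values (976 and 1271), and both treated Hgfac values lie below the controls.

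Met messenger RNA was read by a pair of probe sets that gave different answers. The brighter one, 1434447_at, gave 976 units in control liver at day 7 and 1271 at day 10, and 2432 and 2829 in treated liver. The groups did not overlap, and the mean signal was 1123 ± 209 in control and 2631 ± 280 in treated liver (SD, n = 2). The log2 difference was 1.24 ± 0.23 (SE), a 2.36-fold higher signal with a 95% interval from 0.68 to 1.8, and it did not pass in limma (adjusted p = 0.103). It was 1.32 at day 7 and 1.15 at day 10. Without the treated day 7 array the difference was 1.35 and passed (adjusted p = 0.0307). That fit takes its spread from the control arrays alone. Over all 13 alternative settings the adjusted p ranged from 0.0307 to 0.48.

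The dimmer Met probe set, 1422990_at, gave 412 and 495 units in control liver and 458 and 626 in treated liver at day 7 and day 10. These groups overlapped, since the treated day 7 value lay below the control day 10 value. The log2 difference was 0.25 ± 0.27, with a 95% interval from -0.41 to 0.91 (adjusted p = 0.773 in a limma fit over 18922 probe sets). In that fit 0 of 19 tested probe sets of the 10 genes passed, against 0.486% of all, and 3 had an unadjusted p under 0.05. The 2 Met probe sets differed by 0.99 in their log2 difference, and averaging them gave 0.74 (adjusted p = 0.313). Where their probes lie relative to exon 16 was not used here. Probes that lie elsewhere in the transcript check nothing about the deletion, so neither value was taken to measure how much of the intact Met transcript was left.

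The stretch just before the annotated start of Met is shown because Met had the largest difference of the 10 genes. It comes from the RefSeq promoter table of GRCm38.p6, which matched 9 of the 10 genes (11 start sites); Erbb3 was not among them. The 100 bases shown lie at chr6:17463857-17463956 on the plus strand, and capitals mark a GC box (GGGCGG), an AP-1 element (TGANTCA) or a TATA box (TATAAA) on either strand. Matches of 1 motif may overlap each other.
Met: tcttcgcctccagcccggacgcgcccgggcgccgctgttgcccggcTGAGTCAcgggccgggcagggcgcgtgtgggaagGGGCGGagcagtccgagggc

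In its whole window of 250 bases before the start, Met had 3 GC boxes, 1 AP-1 element and 0 TATA boxes, and 74% of its bases were G or C. Among all 32851 such windows the median was 52.4%, and 32.7% held a GC box, 6.75% an AP-1 element and 12.4% a TATA box. Met was the 1 start site of 11 among the matched genes with an AP-1 element. These matches describe the letters only. The arrays give no reading of what binds there.

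Egfr was covered by 7 probe sets, and the treated to control difference depended on which was read. The brightest, 1435888_at, gave 5664 and 9707 units in control liver at day 7 and day 10, and 6686 and 7720 in treated liver. Both treated values lay between the control values, and the control arrays differed from each other by 0.78 on the log2 scale. The log2 difference between groups was -0.05 ± 0.30 (adjusted p = 0.969 in limma), and its 95% interval ran from -0.76 to 0.67. Differences within that interval in either direction are thus not excluded by these 4 arrays.

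Of the 6 Egfr probe sets bright enough to test, 3 were higher at both days, and their log2 differences ran from -0.11 to 0.82 with a median of 0.23. Probe set 1424932_at gave 2398 and 5207 units in control and 5583 and 7012 in treated liver. Both treated values lay above both controls, with a log2 difference of 0.82 ± 0.38 (adjusted p = 0.471). Probe set 1432647_at did not overlap either, at 692 and 610 units in control and 807 and 954 in treated liver (0.43 ± 0.23, adjusted p = 0.532).

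The next Egfr probe set, 1451530_at, gave 903 and 1309 units in control and 1248 and 2211 in treated liver (0.61 ± 0.34, adjusted p = 0.549). Its groups overlapped through the control day 10 array. Probe set 1460420_a_at gave 6784 and 5073 units in control and 5582 and 6306 in treated liver, a difference of 0.02 ± 0.23. Probe set 1454313_at, at 621 and 515 against 445 and 617 units, gave -0.11 ± 0.27. Both were lower at day 7 and higher at day 10, as was the dimmest, 1457563_at, which lay under the brightness filter at 97.2 to 164 units. The brightest Egfr probe set ran the other way, higher at day 7 by 0.24 and lower at day 10 by 0.33 on the log2 scale. The position of these probes on the Egfr transcripts was not used here.

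Erbb3 was slightly higher on both treated arrays. Its brighter probe set, 1434606_at, gave 4181 and 3492 units in control liver at day 7 and day 10, and 5104 and 4475 in treated liver. In both groups the day 10 value was below the day 7 value, and the groups did not overlap. The log2 difference was 0.32 ± 0.21, with a 95% interval from -0.19 to 0.84 (adjusted p = 0.601 in limma). The other Erbb3 probe set, 1452482_at, read only 59.1 to 87.2 units, near the floor of 64.7 units under which signals were not told apart.

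Erbb2 was dim on every array, with 137 and 54.4 units in control and 50.6 and 73.9 in treated liver. A value at or under the floor came from 1 array of each group, so no direction was read. Erbb4, the remaining receptor of the family, lay at or under the floor on all 4 arrays, as did Mst1r, the MET-related receptor of macrophage stimulating protein. Of the 4 ERBB receptors, Egfr and Erbb3 were thus the ones with signals well above the floor, each on at least 1 probe set.

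**Figure D2:**
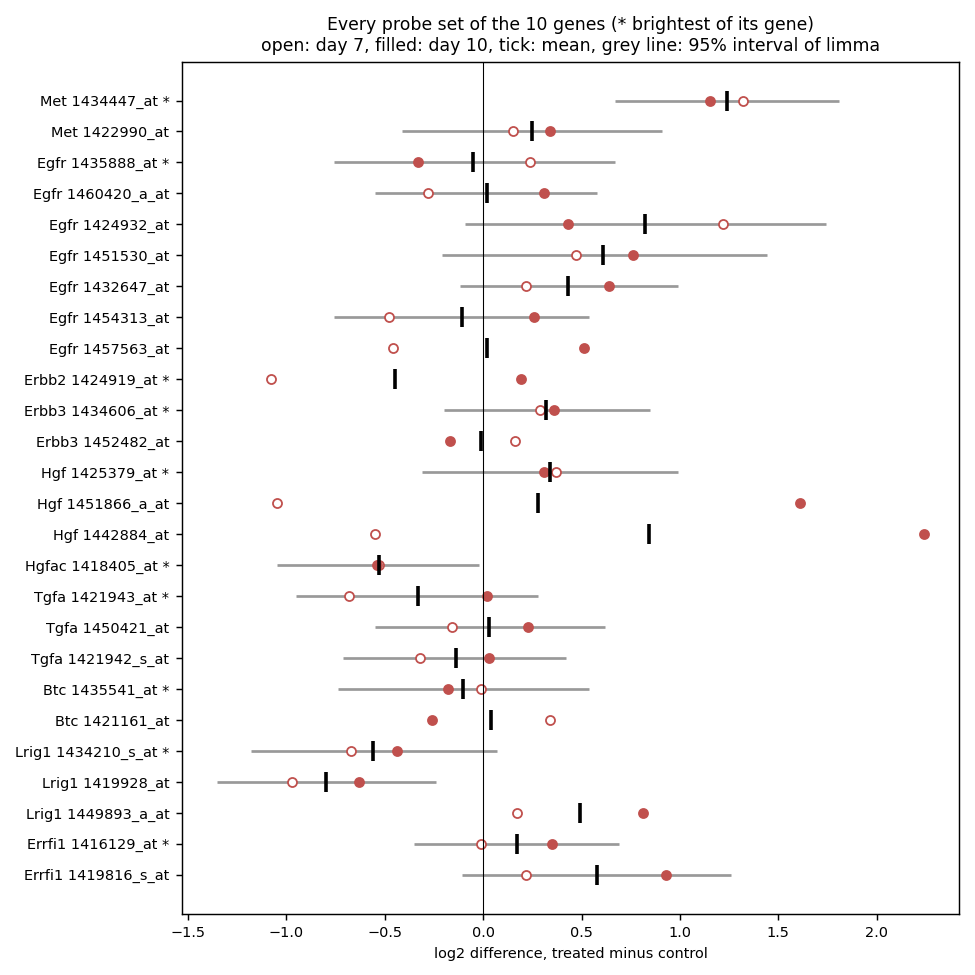
Log2 difference, treated minus control, for all 26 probe sets of the 10 genes, brightest first within a gene (star). Open circles are day 7, filled circles day 10, the tick is their mean and the grey line limma's 95% interval, drawn for the 19 probe sets bright enough to test. The Met probe sets sit at 1.24 and 0.25, the 6 tested Egfr probe sets run from -0.11 to 0.82, and the dim Lrig1 probe set lies on the other side of 0 from its brighter ones.

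Hgf, the ligand of MET, was slightly higher on its brightest probe set, while its dimmer ones differed by day. Probe set 1425379_at gave 374 and 324 units in control liver at day 7 and day 10, and 481 and 403 in treated liver. The groups did not overlap, and the log2 difference was 0.34 ± 0.27, with a 95% interval from -0.31 to 0.99 (adjusted p = 0.667 in limma).

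The other Hgf probe sets lay under the brightness filter and were not tested. Probe set 1451866_a_at gave 134 and 99.5 units in control and 53.1 and 304 in treated liver. Probe set 1442884_at gave 94.5 and 37.1 in control and 34.9 and 305 in treated liver, at least 4.71-fold higher at day 10, where the control was under the floor. On both of them the treated day 10 array was the highest of the 4, and the treated day 7 array was under the floor. The brightest probe set was instead highest on the treated day 7 array.

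Hgf in liver is made mainly by stellate cells, and marker genes of that cell type were read beside it. Of 8 stellate cell markers bright enough to test 0 passed, and their median log2 difference was 0.33. At both days 5 were higher and 1 lower, against 26.7% and 31.1% of all tested genes. The summed signal of the 10 measured markers was 12010 and 14681 units in control and 19657 and 20007 in treated liver. The defining markers Lrat, Reln and Des differed by -0.26, -0.19 and -0.19. The others tested were higher, Hand2 by 1.15, Dcn by 1.04, Lum and Rgs5 by 0.46 each and Colec11 by 0.20, and were singled out after their values were seen. So were the markers under the brightness filter. Of these, Col1a1 was lower on both treated arrays (-1.65, with 1 array under the floor) and Pdgfrb higher (0.50). Dcn, which encodes the matrix proteoglycan decorin, made up much of the sum, with 5198 and 5879 units in control and 11905 and 10839 in treated liver. None of the 10 was at or under the floor on all arrays. Their part in the Hgf values was not tested.

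Hgfac, which encodes the protease that activates hepatocyte growth factor and is made by hepatocytes, was lower on both treated arrays. Its single probe set gave 6895 and 6005 units in control liver at day 7 and day 10, and 4781 and 4126 in treated liver. The log2 difference was nearly equal at the 2 days, -0.53 and -0.54. Over both it was -0.53 ± 0.21, a 1.45-fold lower signal with a 95% interval from -1.04 to -0.03. It had an unadjusted p of 0.042 and did not pass (adjusted p = 0.392 in limma).

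Of 10 hepatocyte markers 0 passed beside it, and their median log2 difference was 0.06. Their summed signal was 430496 and 425409 units in control and 521032 and 462540 in treated liver. The markers Alb and Ttr (transthyretin) differed by 0.05 and -0.05. Both treated arrays lay above both controls for 4 of the 10 and below them for 0, against 20.3% and 24.1% of all tested genes. The 4 were Hnf4a (a log2 difference of 0.86), a transcription factor of hepatocytes, Fgb (0.69), Apob (0.68) and Tat (0.60), singled out after their values were seen. Their part in the Hgfac value was not tested.

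The stretch before the Hgfac start, at chr5:35041409-35041508 on the plus strand (GRCm38.p6), is shown because Hgfac, like Met, had an unadjusted p under 0.05. In its window of 250 bases it held none of the 3 motifs, and 58.4% of its bases were G or C.
Hgfac: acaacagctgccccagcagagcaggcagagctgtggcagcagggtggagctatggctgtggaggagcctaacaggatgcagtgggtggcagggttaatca

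Tgfa and Btc, the EGFR ligands, gave overlapping groups on every probe set. For Tgfa the brightest probe set read 933 and 705 units in control liver at day 7 and day 10, and 582 and 712 in treated liver. It was thus lower at day 7 (-0.68 on the log2 scale) and level at day 10 (0.02), and the difference over both was -0.33 ± 0.25 (adjusted p = 0.644 in limma). The other 2 Tgfa probe sets gave -0.14 and 0.03, each lower at day 7 and higher at day 10. Btc read 774 and 634 units in control and 767 and 558 in treated liver, with a log2 difference of -0.10 ± 0.26 (95% interval -0.72 to 0.52, adjusted p = 0.909). In both groups the Btc signal was lower at day 10 than at day 7, by 0.29 and 0.46 on the log2 scale. Its other probe set lay near the floor at 30.5 to 82.1 units.

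Lrig1, the inhibitor that marks ERBB receptors and MET for removal, was lower on its 2 brighter probe sets and not on the dimmest. The brightest, 1434210_s_at, gave 1206 and 1448 units in control liver at day 7 and day 10, and 757 and 1067 in treated liver. The groups did not overlap, and the log2 difference was -0.56 ± 0.25, a 1.47-fold lower signal (95% interval -1.17 to 0.06, adjusted p = 0.459 in limma).

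Probe set 1419928_at gave 930 and 904 units in control and 476 and 585 in treated liver, with a log2 difference of -0.80 ± 0.23. It had an unadjusted p of 0.0123 and did not pass (adjusted p = 0.273 in the fit over probe sets). Probe set 1449893_a_at was under the filter at 185 and 143 units in control and 208 and 251 in treated liver. There the treated arrays were both higher, a log2 difference of 0.49. The mean over all 3 Lrig1 probe sets was -0.29.

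The stretch before the Lrig1 start, at chr6:94700146-94700245 on the minus strand (GRCm38.p6), is shown beside those of Met and Hgfac as the other gene with a lower signal on both treated arrays. Its window of 250 bases held 2 GC boxes and none of the other motifs, and 71.6% of its bases were G or C, nearer to Met than to Hgfac.
Lrig1: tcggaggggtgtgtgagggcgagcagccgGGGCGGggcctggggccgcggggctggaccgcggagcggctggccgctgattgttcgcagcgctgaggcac

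Errfi1, which encodes the inhibitor of the EGFR kinase, gave no separation of groups on its brightest probe set. It read 35356 and 32944 units in control liver at day 7 and day 10, and 35095 and 42024 in treated liver. The log2 difference was 0.17 ± 0.22 (95% interval -0.36 to 0.7, adjusted p = 0.797 in limma), -0.01 at day 7 and 0.35 at day 10. The other Errfi1 probe set, 1419816_s_at, gave 9396 and 9574 units in control and 10981 and 18178 in treated liver. Here both treated arrays were higher, the one of day 10 most of all, and the log2 difference was 0.58 ± 0.28 (adjusted p = 0.498). By Affymetrix naming an _s_at probe set can also read transcripts of other genes, which applies to this one, to the brightest of Lrig1 and to 1421942_s_at of Tgfa.

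From day 7 to day 10 Met, on its brightest probe set, changed by 0.38 on the log2 scale in control and by 0.22 in treated liver, less than its difference between groups. Egfr changed by 0.78 in control and 0.21 in treated liver. For Hgfac the changes were -0.20 and -0.21, and for Hgf -0.21 and -0.26, so that both groups moved alike between the days. Tgfa moved by -0.40 in control and 0.29 in treated liver. With 1 array per group and day these changes have no test.

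In the wider pathway 80 of 87 listed genes were measured and 68 were bright enough to test. Of these 68, 0 rose and 1 fell in limma, against 0.659% of all tested genes called in either direction. At both days 29 were higher and 17 lower, against 26.7% and 31.1% of all tested genes. Both treated arrays lay above both controls for 23 and below them for 12, against 20.3% and 24.1%. The lists were chosen with earlier results of these data known, so these counts are descriptions.

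The gene that fell was Gab2, which encodes an adaptor that couples receptor tyrosine kinases to SHP2 and PI3K. Its brightest probe set, 1420785_at, gave 873 and 680 units in control liver and 133 and 160 in treated liver, a 5.29-fold lower signal (log2 difference -2.40 ± 0.31, adjusted p = 0.0307). Another, 1419829_a_at, ran the opposite way, with 98.3 and 86.9 units in control and 394 and 300 in treated liver (log2 difference 1.90, under the filter). The third, 1439786_at, gave 216 and 275 against 233 and 274 units, a difference of 0.05. The probe sets of Gab2 thus do not give 1 direction for the gene, and the mean over them was -0.15 (adjusted p = 0.836). The call also ended with day as a block (adjusted p = 0.0972), without a filter on dim genes (0.232), and without the control array of day 7 (-2.22, adjusted p = 0.303) or of day 10 (-2.58, adjusted p = 0.228).

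None of the other tested adaptors and cascade members passed in limma, and over the list's 19 tested genes the median log2 difference was 0.32. The transcription factor gene Stat3 gave 2710 and 2365 units in control and 5748 and 8547 in treated liver (log2 difference 1.47 ± 0.26, adjusted p = 0.0866). With 1 array left out the Stat3 difference ran from 1.18 to 1.76. The ERK kinase gene Map2k2 differed by 1.16 ± 0.34 (adjusted p = 0.26), and by only 0.59 with averaged probe sets. Leaving out 1 array gave 0.8 to 1.53 for Map2k2. The exchange factor gene Sos1 differed by -0.41 ± 0.26 (adjusted p = 0.589). Gab1, the adaptor that docks on MET and was singled out after its value was seen, differed by 0.18 ± 0.24 (adjusted p = 0.797). Of the 26 listed genes 6 were not analysed here.

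None of the 4 tested ligands passed, and 3 were higher at both days, against 26.7% of all tested genes (list median 0.51). The neuregulin gene Nrg2 gave 89.2 and 233 units in control and 319 and 395 in treated liver (log2 difference 1.30 ± 0.55, adjusted p = 0.422). Without the control day 7 array that difference was 0.61, and without the control day 10 array 1.99. Nrg4, another neuregulin, differed by 0.59 ± 0.29 (adjusted p = 0.484). Egf itself, with Ereg, Epgn and Nrg1, lay under the brightness filter, and Areg was not analysed here.

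Among 4 tested co-receptors 0 passed. The semaphorin and growth factor co-receptor Nrp1 gave 2428 and 2308 units in control and 980 and 1780 in treated liver (-0.84 ± 0.31, adjusted p = 0.366). It ran from -1.27 to -0.41 with 1 array left out. With averaged probe sets the Nrp1 difference was only -0.29. Cd44, whose product presents hepatocyte growth factor to MET, differed by 0.54 ± 0.27, Plxnb1 by 0.34 ± 0.22 and the syndecan Sdc1 by -0.11 ± 0.20 (adjusted p from 0.484 to 0.854).

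Of 11 tested genes for ligand activation and shedding 0 passed, with a median of -0.04. The plasma proteases Klkb1 and F12, both made by hepatocytes, differed by -0.72 ± 0.33 and -0.31 ± 0.28. Leaving out 1 array gave -1.14 to -0.3 for Klkb1. The sheddase Adam10 and the HGF activator inhibitor Spint1 differed by 0.43 ± 0.21 and 0.54 ± 0.30.

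Of 15 tested genes for receptor turnover and inhibition 0 passed, with a median of -0.13. The non-receptor kinase Tnk2 gave 1303 and 1224 units in control and 822 and 799 in treated liver (-0.64 ± 0.20, adjusted p = 0.298). When its probe sets were averaged, Tnk2 differed by only -0.16. The phosphatase Ptpn2 differed by 0.82 ± 0.25 (adjusted p = 0.273), but by -0.03 when its probe sets were averaged. The suppressors Socs4 and Socs5 differed by -0.51 ± 0.29 and 0.32 ± 0.23.

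None of 15 other growth factor and cytokine receptors passed either (median -0.01). The growth hormone receptor Ghr gave 15767 and 13490 units in control and 7773 and 5930 in treated liver (-1.10 ± 0.23, adjusted p = 0.145). With 1 array left out the Ghr difference ran from -1.30 to -0.91. Il6st, the shared receptor chain of the interleukin 6 family, differed by 0.98 ± 0.35 (adjusted p = 0.354). Leaving out 1 array gave 0.48 to 1.49 for Il6st. Fgfr3 differed by -0.87 ± 0.34, and Igf1r by 0.86 ± 0.42 but by -0.14 with averaged probe sets. Without the control array of day 7 the Igf1r difference was 0.23, and without that of day 10 it was 1.49.

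**Figure D3:**
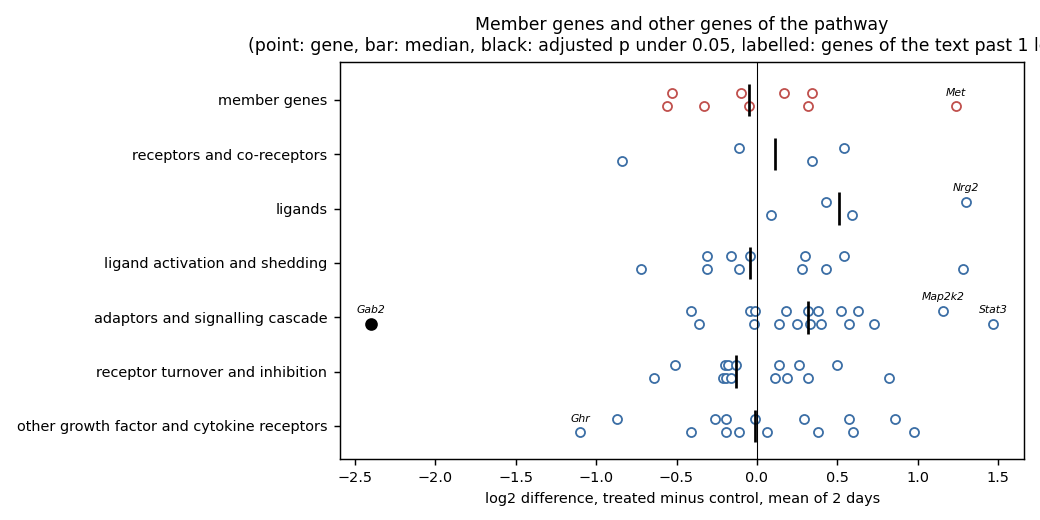
Log2 difference, treated minus control, for the 9 tested genes of the set (red, top) and for 68 tested genes in 6 other lists of the pathway (blue). Each point is a gene on its brightest probe set, the bar is the list's median and a black point passed limma at an adjusted p under 0.05. Gab2 at -2.40 is the only black point, and Met at 1.24 is the highest of the 9.

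The profile of Met over the 4 arrays was set against those of all tested genes, each centred on its own mean on the log2 scale. Each gene was read on its brightest probe set. The dimmer Met probe set, whose groups overlapped (log2 difference 0.25), was not used. The nearest 5 by Euclidean distance were Grn, Lcat, Arhgef26, B4galt6 and Syt11, at distances of 0.0836, 0.109, 0.12, 0.187 and 0.198, against a median of 1.39 over all genes. Grn, which encodes the lysosomal and secreted protein progranulin, gave 6616 and 8268 units in control and 16889 and 18323 in treated liver. Lcat, the plasma enzyme that esterifies cholesterol, gave 5673 and 7082 units in control and 13712 and 14822 in treated liver. Their log2 differences were 1.25 ± 0.22 and 1.17 ± 0.22, and like that of Met they did not pass (adjusted p = 0.0866 and 0.101 in limma). With 1 array left out the difference ran from 1.09 to 1.41 for Grn and from 1.01 to 1.33 for Lcat. Arhgef26 differed by 1.14 ± 0.23, and by 0.94 to 1.34 with 1 array left out. Syt11 differed by 1.18 ± 0.27, but by 0.26 when its probe sets were averaged. Likeness over 4 arrays is a description, and many profiles with a step between the groups look alike at this number of arrays.

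**Figure D4:**
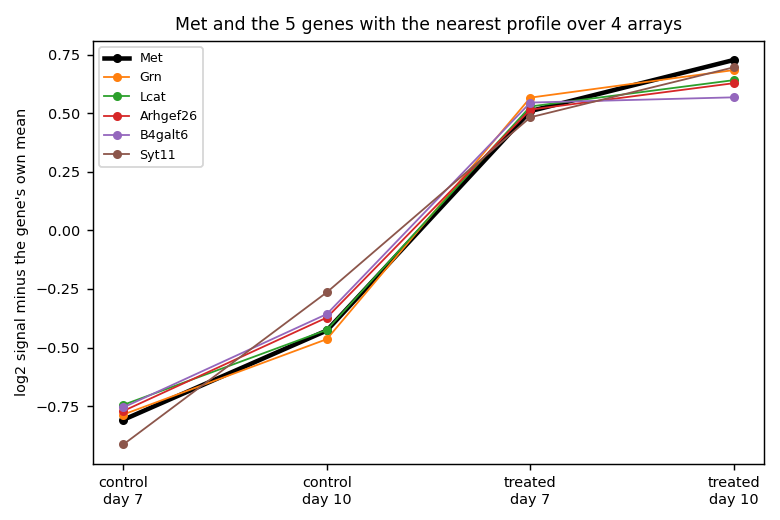
Log2 signal minus the gene's own mean over the 4 arrays for Met (black) and the 5 genes with the nearest profiles, each on its brightest probe set. The lines share a step between the control and treated arrays, 1.24 on average for Met. From day 7 to day 10 they rose by less, and B4galt6 was nearly level between the treated arrays (0.02).

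Among immune cell markers, those of macrophages and most tested neutrophil markers were higher in treated liver at both days. Those of B, plasma, T and NK cells were mixed. All 11 tested macrophage and Kupffer cell markers were higher at both days, against 26.7% of all tested genes, and 3 rose in limma, against 0.659% of all genes called in either direction (median log2 difference 1.27). Their summed signal was 16422 and 10104 units in control and 39289 and 35176 in treated liver. The defining markers Clec4f, Adgre1 and Cd68 differed by 1.20, 0.68 and 1.01. Of 5 tested neutrophil markers 4 were higher at both days, against 26.7% of all tested genes, with a median log2 difference of 0.76. Of the 5, 2 rose, S100a8 and S100a9 (10.2-fold and 8.97-fold), against 0.659% of all genes called in either direction. Ngp, Mpo and Elane differed by 0.76, 0.14 and -0.07. The summed signal of 7 measured ones was 2488 and 2684 units in control and 7616 and 7855 in treated liver. Camp, another neutrophil granule gene of the list, was at or under the floor on all arrays. Cxcr2, under the brightness filter, was lower at day 7 (-0.08) and day 10 (-0.48).

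The antibody joining chain Jchain was the 1 of 7 B and plasma cell markers that rose (9.83-fold). Of all tested genes 0.659% were called in either direction. The median log2 difference of the 7 markers was -0.03. Their summed signals were 6203 and 4149 against 14054 and 13027 units, of which the immunoglobulin heavy chain Ighm gave 2716 and 1017 against 9578 and 7610. The B cell markers Cd79a, Cd79b and Ms4a1 differed by -0.32, -0.63 and -0.13. Ngp, Mpo, Elane, Camp, Cxcr2, Ighm and Ms4a1 were singled out after their values were seen. Of 10 sinusoidal endothelial markers 0 passed (median 0.25; summed signals 11558 and 10411 against 10811 and 15834 units), as did 0 of 3 T and NK cell markers (median 0.26; 2776 and 2715 against 2755 and 3511 units). Of the cholangiocyte markers 2 were bright enough to test and neither passed (summed signals 996 and 1080 against 570 and 1289 units). The part of these cells in the values of Met and the other receptor genes was not tested.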

How the data were processed

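Biotin-labelled RNA of pooled livers was read on 4 arrays. The deposited intensity values were made by the authors with MAS5 (per the submitters' processing notes; version not given in the sources used here) on a linear scale. With the top and bottom 2% removed, every array averaged 500, and detection calls were not used here.

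Probe sets with 1 gene symbol (34945 of 45101) were used, and all 10 genes matched the RefSeq gene table of GRCm38.p6 by Entrez ID. Signals under the 25th percentile (64.7) were set to it and log2 was taken. A gene was tested on its brightest probe set if its mean log2 exceeded 7.67 (a signal of 204), the median of all probe sets. limma 3.58.1 in R 4.3.3 compared 2 arrays per group (lmFit; eBayes with an intensity trend; two-sided; 2 residual degrees of freedom). A like fit covered all probe sets above that brightness. Intervals are limma's 95% intervals. P-values measure only the spread between these 4 pooled arrays, and their number limits the precision. The limma step was run on simulated data with independent errors, no day effect and a spread drawn from this same fit. That checks the code and not the calls made here. Plots used matplotlib 3.10.9 under Python 3.11.15.

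The 10 genes and all gene lists were chosen with earlier results of these data known. Named beside the 10 are, per pathway list, the 2 highest and 2 lowest tested genes with the same sign at both days, any that passed, the 5 nearest to Met, and leading markers. Exceptions are marked. Promoter letters are from RefSeq. Alternatives covered normalization, floor, filter, trend, day as a block, probe set choice, size rule, threshold and each array left out.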

Additional observations from a re-analysis of the deposited data

Results flagged for a closer look

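The differences at the 2 days had opposite signs for 3 of the 9 tested genes on their brightest probe sets, each with 1 array per group and day, and the change between the days was not tested. Egfr differed by 0.24 on the log2 scale at day 7 and by -0.33 at day 10, Tgfa by -0.68 and 0.02, and Errfi1 by -0.01 and 0.35. The Tgfa value at day 10 and the Errfi1 value at day 7 are close to 0, so that only Egfr was more than 0.02 away from 0 in both directions.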

How the results depend on the processing

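Over all 9 tested genes and every alternative run, the only call was that of Met without the treated day 7 array: leaving out 1 array gave 0 to 1 calls among the 9, and 0 of the tested probe sets passed in any setting of that fit. At a size rule of 3-fold 0 of the 9 were past it at both days, against 1 at 2-fold. Over all genes the 79 calls became 0 without a filter on dim genes (1919 of 18193 at an unadjusted p under 0.05), 42 without the intensity trend, 42 with averaged probe sets, 47 with day as a block, 162 at an adjusted p under 0.1, and 24 to 466 when 1 array was left out. Fits without an array took their spread from the other group alone, assuming the lone array varies alike.

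Direction turned under some alternatives, and the cause was not tested. Egfr (-0.05) was 0.25 with averaged probe sets and -0.43 to 0.34 with 1 array left out, and its other probe sets gave 0.82, 0.61, 0.43, 0.02, 0.02 and -0.11. With 1 array left out, Egfr probe set 1460420_a_at ran from -0.19 to 0.23, Egfr 1454313_at from -0.35 to 0.13, Btc from -0.33 to 0.13 and F12 from -0.64 to 0.02. Other probe sets gave -0.01 for Erbb3, 0.03 for Tgfa, 0.04 for Btc and 0.49 for Lrig1. Averaged probe sets gave 0.02 for Sos1, -0.03 for Ptpn2 and -0.14 for Igf1r. Of 344 alternative values of the other 27 named genes, 323 kept direction and side of the threshold, 5 lost it (all Gab2) and 4 turned. The rest gained it, each with 1 treated array left out, a setting that also raised the calls over all genes.

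With 2 arrays per group and pooled RNA, the intervals are wide and no spread between animals was measured. Quantile normalization and equal medians changed no direction among the 9 genes.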
